A study of Mus musculus with 6 samples.

Results

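The mRNAs of the 4 FGF receptors and of 6 genes that FGF signals switch on were compared between alveolar type II cells of Stat3Δ/Δ mice and of littermate controls. The genes are Fgfr1, Fgfr2, Fgfr3, Fgfr4, Spry1, Spry2, Spry4, Dusp6, Etv4 and Etv5. Every probe set that names one of these genes alone was taken, which gave 26 probe sets for the 10 genes, out of 45037 probe sets tested and 18193 genes named alone by a probe set. Stat3Δ/Δ mice carry SP-C-rtTA, (tetO)7CMV-Cre and floxed Stat3 on both alleles, and the surfactant protein C promoter drives the transactivator, so that doxycycline removes an exon of Stat3 from respiratory epithelium before birth. Controls are labelled as double transgenic for SP-C-rtTA and (tetO)7CMV-Cre, while the study's methods give them as littermates with floxed Stat3 and only one of these transgenes; this difference was not resolved here. The dams of both groups received doxycycline in the food from conception until after birth. Mice were 8 weeks old and matched for sex and age, and 1 MOE430 array was run per pool of 3 mice, with 3 pools of Stat3Δ/Δ and 3 of control cells.

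Fibroblast growth factor receptors are tyrosine kinases of the cell surface that pass their signal through adaptor proteins to RAS and the kinase ERK. In the lung, fibroblast growth factors from mesenchyme act on the epithelial form of FGFR2, and this axis is known for the branching of the airways and for the growth and upkeep of type II cells. ERK switches on genes that restrain the pathway, among them the Sprouty proteins and the ERK phosphatase DUSP6, as well as the ETS transcription factors ETV4 and ETV5, which carry the signal to the genome. ETV5 is known to keep type II cells in their state.

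The deposited values are linear signals of Affymetrix Microarray Suite 5.0, and the median signal ran from 337.8 to 381.3 on the Stat3Δ/Δ arrays and from 282.8 to 360.7 on the control arrays. Group comparisons were made with limma on log2(signal + 69.9) after quantile normalization, where SE is the standard error of a log2 fold change and 69.9 is the 20th percentile of all signals, so the change of dim probe sets is understated. Calls required p no greater than 0.05, FDR no greater than 10% and a change of 1.5-fold or more, the thresholds of the study, which also took genes with several probe sets that moved alike without regard to the FDR; p and fold alone, without the FDR, are called the unadjusted thresholds. The 7 type II cell markers measured, the surfactant proteins among them, summed to signals of 582191 to 771331 on the Stat3Δ/Δ arrays and 700462 to 766542 on the control arrays. Each lay above the 20th percentile of its array. Of the 7, Abca3 was lower at the unadjusted thresholds, against 5.54% of all genes by their brightest probe sets. In 2 of the 7 all Stat3Δ/Δ arrays lay below the control arrays, against 10.2% of all genes. Of the 4 probe sets of Stat3 itself, 1426587_a_at had signals of 26285, 20128 and 25650 in Stat3Δ/Δ pools 1 to 3 and 49489, 41544 and 35080 in control pools 1 to 3, and 1460700_at likewise did not overlap between the groups; neither passed the FDR. The other 2 gave log2 fold changes of -0.046 and 0.60, and where the 4 lie on the transcript was not analysed here. The titles of Stat3Δ/Δ pools 1 and 2 and of control pool 3 begin with one number, those of control pools 1 and 2 with another, and that of Stat3Δ/Δ pool 3 with one of its own. The labels and methods do not explain this number, and log2 fold changes among the 3 arrays with a common number, 2 of Stat3Δ/Δ and 1 of control cells, are given for the members and for most other genes named. In a bulk isolate, fewer cells of a type and less RNA per cell cannot be told apart.

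None of the 26 probe sets was called, and none had Stat3Δ/Δ arrays that all lay above or all below the control arrays. Over all probe sets, 0.00222% were called and 13.7% did not overlap between the groups, 5.99% higher and 7.66% lower in Stat3Δ/Δ cells. A limma p no greater than 0.05 was found for 2 of the 26, against 8.45% of all probe sets. At the unadjusted thresholds, 1 of the 26 was higher in Stat3Δ/Δ cells, against 4.14% of all probe sets, and 1 was lower, against 4.22%; these are Fgfr3 probe set 1425796_a_at and Spry4 probe set 1422020_at. The log2 fold change lay above 0 for 13 probe sets and below 0 for 13. With each gene represented by its probe set of highest mean, the 10 genes had log2 fold changes from -0.49 to 0.37, with a median of -0.13, and the median of all genes was -0.085. The intervals (95%) of these 10 values together spanned -1.10 to 1.53, so 3 arrays a group left wide limits on each change.

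**Figure D1:**
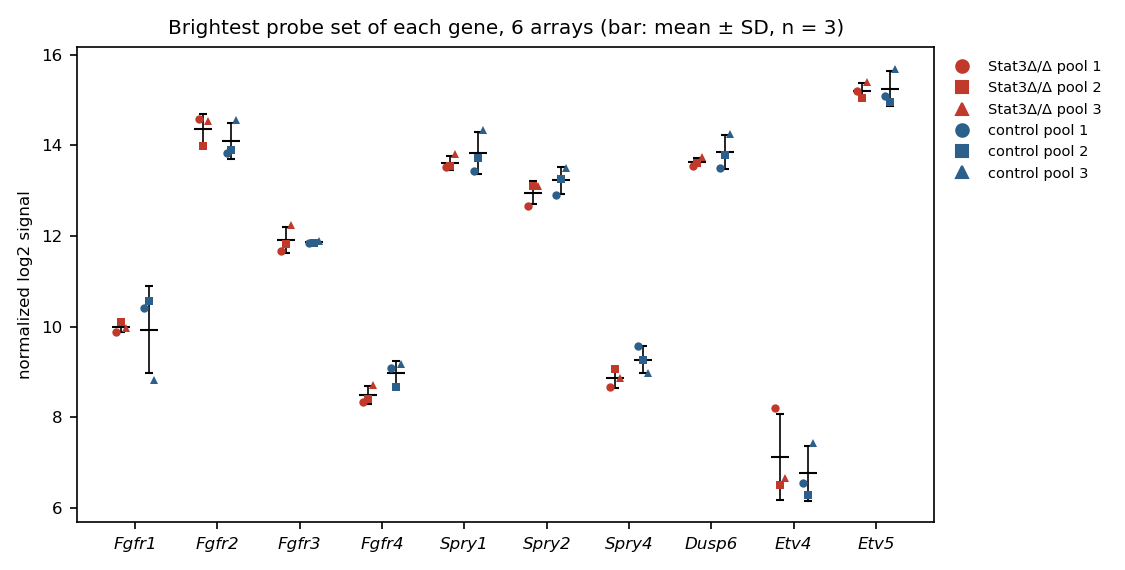
Normalized log2 signal (y axis) of the brightest probe set of each of the 10 genes (x axis) in 3 Stat3Δ/Δ pools (red, left) and 3 control pools (blue, right); points are pools and bars the mean ± SD. The 2 groups overlap for each gene, and control pool 3 is the highest of the 6 arrays for Fgfr4, Spry1, Spry2, Dusp6 and Etv5. These are 5 of the 10 genes, against 13.5% of all genes by their brightest probe sets.

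Fgfr2, whose epithelial form receives FGF7 and FGF10 in the lung, had a strong signal with 2 of its 3 probe sets. The brightest, 1433489_s_at, gave signals of 22564, 15572 and 24570 in Stat3Δ/Δ pools 1 to 3 and 15615, 15236 and 23260 in control pools 1 to 3. Stat3Δ/Δ pools 1 and 3 and control pool 3 were high, and the other 3 pools lay together near the lower end. The mean log2 signal of the Stat3Δ/Δ pools was 14.37 ± 0.33 and that of the control pools 14.09 ± 0.40 (SD, n = 3 each), which gave 0.27 as log2 fold change (SE 0.31, limma adjusted p = 0.839), and within the shared title number it was -0.28. A second probe set, 1420847_a_at, had signals of 14887, 9747 and 14525 in Stat3Δ/Δ pools 1 to 3 and 3340, 6236 and 12951 in control pools 1 to 3. Here control pools 1 and 2 stood below the other 4 arrays, and control pool 3 stood among the Stat3Δ/Δ pools. The log2 difference was 0.97 (SE 0.48, limma adjusted p = 0.634), and -0.10 within the arrays that share a title number. The dim probe set, 1443211_at, gave 0.051, and 0.53 within that number. The study itself lists Fgfr2 among the genes increased in Stat3Δ/Δ cells, from RMA values that were not used here.

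Fgfr1, the receptor form most known from mesenchyme, showed the opposite arrangement of control pools. Its brightest probe set, 1424050_s_at, gave signals of 929.7, 1053 and 917.2 in Stat3Δ/Δ pools 1 to 3 and 1182, 1456 and 416.2 in control pools 1 to 3. Control pool 3 was the lowest array and control pools 1 and 2 the highest, so that the control pools enclosed the Stat3Δ/Δ pools. The log2 difference was 0.049 (SE 0.45, limma adjusted p = 0.989); it was -0.50 without control pool 3. Within the shared title number it was 1.16, with control pool 3 as the only control array. A fit with a fixed block for the number also gave 1.16. That follows from the design, since its group term rests on the same 3 arrays. The probe sets 1425911_a_at and 1436551_at gave -0.043 and -0.13, and within the shared number 0.69 and -0.12. With arrays centred on their medians the value of the brightest was -0.056.

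Fgfr3, a receptor that also restrains bone growth, gave a steady signal with its brightest probe set, 1421841_at, of 3252, 3583 and 4681 in Stat3Δ/Δ pools 1 to 3 and 3523, 3605 and 3766 in control pools 1 to 3. The control pools lay within the range of the Stat3Δ/Δ pools, and the log2 fold change was 0.052 (SE 0.26, limma adjusted p = 0.976), or -0.079 with arrays centred on their medians and -0.15 within the shared title number. Its dimmer probe set, 1425796_a_at, had signals of 609.4, 727.4 and 808.6 in Stat3Δ/Δ pools 1 to 3 and 81.9, 159.4 and 768.3 in control pools 1 to 3. Control pools 1 and 2 were again far below the rest, and control pool 3 exceeded Stat3Δ/Δ pools 1 and 2. Its fold change was 1.23 on the log2 scale (SE 0.53, limma adjusted p = 0.585), the highest among the 26. Within the shared title number it was -0.20.

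Fgfr4 was dim with each of its 5 probe sets. The brightest, 1427846_x_at, gave signals of 290.6, 278.3 and 351.8 in Stat3Δ/Δ pools 1 to 3 and 400.8, 309.9 and 547.2 in control pools 1 to 3. Only control pool 2 fell within the Stat3Δ/Δ range, and the log2 fold change was -0.49 (SE 0.26, limma adjusted p = 0.663), the lowest among the 10 genes and -0.80 within the shared title number. Its 4 other probe sets ran from -0.20 to 0.33. Probe sets 1427845_at and 1427846_x_at were designed on one sequence record and 1427776_a_at and 1427777_x_at on another. Where the probes of each pair lie on the transcript was not analysed here. A suffix _x_at marks probes that may bind other transcripts as well.

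The promoter of Dusp6 and both start regions of Etv5 are shown because these genes are read as direct outputs of the pathway, and because the probe sets of Etv5 disagree with each other. Sequences are those of RefSeq on build GRCm38.p6, 250 bases before the start of transcription on the strand of the gene, and capitals mark ETS motif letters, CGGAAG or GGAAGT, on either strand.
Dusp6, chr10:99262981-99263230, plus strand: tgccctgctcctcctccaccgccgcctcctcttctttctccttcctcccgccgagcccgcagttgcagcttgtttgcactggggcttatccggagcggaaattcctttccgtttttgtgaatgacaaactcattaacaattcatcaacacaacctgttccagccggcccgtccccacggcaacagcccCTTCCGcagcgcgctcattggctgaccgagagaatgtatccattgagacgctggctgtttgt
Etv5, first start region, chr16:22439571-22439820, minus strand: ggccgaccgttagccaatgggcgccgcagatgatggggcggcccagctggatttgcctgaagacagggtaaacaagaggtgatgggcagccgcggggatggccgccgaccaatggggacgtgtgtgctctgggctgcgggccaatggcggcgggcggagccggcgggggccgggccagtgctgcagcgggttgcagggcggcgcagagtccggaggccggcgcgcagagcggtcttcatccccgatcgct
Etv5, second start region, chr16:22438369-22438618, minus strand: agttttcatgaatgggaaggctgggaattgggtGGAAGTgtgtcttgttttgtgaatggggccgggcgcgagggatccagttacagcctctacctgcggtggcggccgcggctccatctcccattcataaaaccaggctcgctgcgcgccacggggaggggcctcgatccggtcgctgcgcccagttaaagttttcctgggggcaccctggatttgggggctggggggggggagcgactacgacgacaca
Windows of 300 bases, 250 before and 50 after the start, were held for 7 of the 10 genes, 9 windows in all. The STAT motif TTCNNNGAA, which reads the same on both strands, occurred in 0 of the 9 and in 8.30% of 32851 such windows. The full ETS motif CCGGAAGT, which contains both shorter ones, occurred in 0 of the 9 and in 3.89% of all windows. CGGAAG was found in the window of Dusp6 and in 16.9% of all, and GGAAGT in that of the second start of Etv5 and in 23.8% of all. A match is a description of the letters and not a bound site.

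Spry1 and Spry2 encode Sprouty proteins, which block the RAS branch of receptor signals, and DUSP6 removes the activating phosphates from ERK. The 1 probe set of Spry1, 1415874_at, gave signals of 11178, 11667 and 14655 in Stat3Δ/Δ pools 1 to 3 and 11601, 13713 and 19923 in control pools 1 to 3. That of Dusp6, 1415834_at, gave 11316, 12322 and 13931 in Stat3Δ/Δ pools 1 to 3 and 12056, 14436 and 18557 in control pools 1 to 3. In both genes control pool 3 was highest, and by these signals control pool 1 lay among the Stat3Δ/Δ pools. On the normalized scale control pool 1 was the lowest array for both. The log2 differences were -0.21 for Spry1 (SE 0.30, limma adjusted p = 0.878) and -0.21 for Dusp6 (SE 0.28, limma adjusted p = 0.863). The brightest probe set of Spry2, 1436584_at, had signals of 6410, 8698 and 8666 in Stat3Δ/Δ pools 1 to 3 and 7868, 9916 and 11295 in control pools 1 to 3, which gave -0.28 as log2 fold change (SE 0.28, limma adjusted p = 0.816). Its dim probe set, 1421656_at, gave 0.29, and 0.036 within the shared title number, with control pools 1 and 2 lowest. Within the shared title number the brightest probe sets gave -0.80 for Spry1, -0.66 for Dusp6 and -0.62 for Spry2. Without control pool 3 they gave 0.042, -0.013 and -0.14, so that the size of these values rests on that pool.

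Spry4, a further Sprouty inhibitor, had 4 dim probe sets with log2 fold changes that were each below 0. The brightest, 1445669_at, gave signals of 379.0, 493.7 and 394.3 in Stat3Δ/Δ pools 1 to 3 and 599.3, 512.7 and 469.6 in control pools 1 to 3, which gave -0.41 as log2 fold change (SE 0.27, limma adjusted p = 0.719) and -0.12 within the shared title number. Probe set 1440867_at gave -0.32, and -0.29 within that number. Probe set 1422020_at had signals of 120.0, 14.0 and 38.9 in Stat3Δ/Δ pools 1 to 3 and 80.4, 155.0 and 144.9 in control pools 1 to 3, and 1422021_at, designed on the same sequence record, gave -0.41, and -0.76 within the shared number. Stat3Δ/Δ pools 2 and 3 were the lowest arrays of 1422020_at and Stat3Δ/Δ pool 1 lay within the control range. Its log2 difference was -0.81 (SE 0.32, limma adjusted p = 0.566), and -0.78 within the shared title number. None of the 4 probe sets changed sign under an alternative, in 17 or 18 alternatives each, and none of the 4 passed the FDR in any of them, with a lowest adjusted p of 0.303.

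Etv5, the ETS factor of type II cells, gave a strong signal with 3 probe sets that did not run alike. The brightest, 1428142_at, had signals of 34042, 32346 and 45691 in Stat3Δ/Δ pools 1 to 3 and 38266, 32736 and 52491 in control pools 1 to 3. Pool 3 of each group was high and the groups overlapped, and the log2 difference was -0.045 (SE 0.28, limma adjusted p = 0.981), while within the shared title number it was -0.58. Probe set 1420998_at had signals of 7830, 5740 and 10222 in Stat3Δ/Δ pools 1 to 3 and 2116, 2514 and 7963 in control pools 1 to 3. Control pools 1 and 2 were the lowest arrays, and control pool 3 was second only to Stat3Δ/Δ pool 3. The log2 difference was 1.10 (SE 0.49, limma adjusted p = 0.602), with a 95% interval of -0.032 to 2.24, and it was -0.25 within the shared title number. Probe set 1450082_s_at, from the same sequence record, gave 0.79 (SE 0.39, limma adjusted p = 0.637), and -0.063 within the shared title number. Etv4, the related factor of growing epithelium, was at or near the lowest signals: 1423232_at gave 54.7, 34.3 and 32.1 in Stat3Δ/Δ pools 1 to 3 and 65.5, 28.1 and 43.8 in control pools 1 to 3. Its other probe set, 1443381_at, gave a log2 fold change of 0.37 (SE 0.51, limma adjusted p = 0.873) and -0.082 within the shared title number, with 262.6 in Stat3Δ/Δ pool 1 against 19.9 and 33.8 in pools 2 and 3 of that group.

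**Figure D2:**
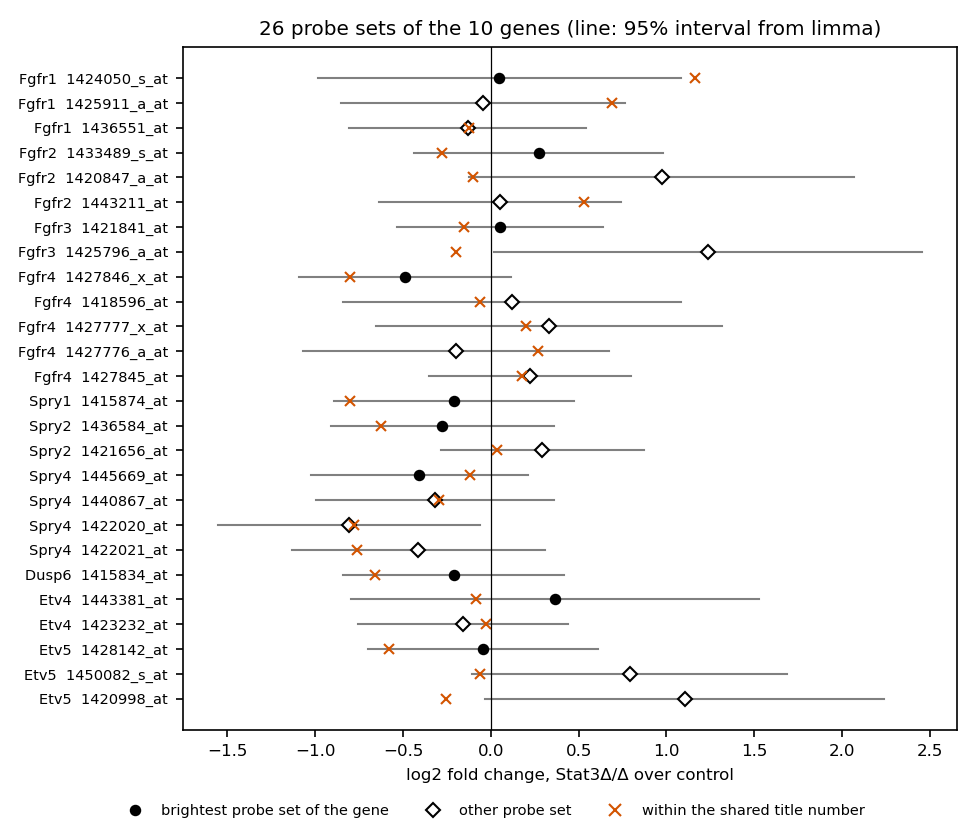
Log2 fold change of Stat3Δ/Δ over control (x axis) for the 26 probe sets (y axis, with the brightest of each gene as a filled circle and others as open diamonds); lines are 95% intervals from limma and crosses are the values within the 3 arrays that share a title number. For Fgfr2 1420847_a_at, Fgfr3 1425796_a_at and both dimmer Etv5 probe sets the crosses lie below 0, while the values over all arrays run from 0.79 to 1.23.

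On the normalized scale, the arrangement in which control pools 1 and 2 lay below the other 4 arrays was shared by 6 of the 26 probe sets, 23.1% against 10.6% of all probe sets, and was noticed after the values were seen. These were 1433489_s_at and 1420847_a_at of Fgfr2, 1425796_a_at of Fgfr3, 1421656_at of Spry2, and 1420998_at and 1450082_s_at of Etv5. The opposite arrangement held for 4, which were 1424050_s_at and 1425911_a_at of Fgfr1 and 1445669_at and 1440867_at of Spry4, 15.4% against 11.8% of all. In Etv5, Fgfr2, Fgfr3 and Spry2 a dimmer probe set had a higher log2 fold change than the brightest of the same gene. So it did in Fgfr4, where 1427845_at gave 0.22 and 1427777_x_at 0.33, and in Spry4 with 1440867_at (-0.32). Other dimmer probe sets lay lower than the brightest. These were both of Fgfr1 (-0.043 and -0.13 against 0.049) and Etv4 1423232_at (-0.16 against 0.37). Fgfr2 1443211_at (0.051 against 0.27) and Spry4 1422020_at (-0.81 against -0.41) and 1422021_at (-0.412 against -0.408) were also lower. On each array, the log2 signal of Etv5 1420998_at less that of 1428142_at was -2.23, -2.53 and -2.08 in Stat3Δ/Δ pools 1 to 3 and -3.94, -3.63 and -2.71 in control pools 1 to 3. For Fgfr3, 1425796_a_at less 1421841_at was -2.39, -2.24 and -2.43 in Stat3Δ/Δ pools 1 to 3 and -4.44, -3.90 and -2.27 in control pools 1 to 3. For Fgfr2, 1420847_a_at less 1433489_s_at was -0.62, -0.70 and -0.75 in Stat3Δ/Δ pools 1 to 3 and -2.07, -1.27 and -0.84 in control pools 1 to 3. For Spry2, 1421656_at less 1436584_at was -4.49, -4.66 and -4.84 in Stat3Δ/Δ pools 1 to 3 and -5.08, -5.38 and -5.24 in control pools 1 to 3. Control pool 3 was the control pool nearest to the Stat3Δ/Δ pools in Etv5, Fgfr2 and Fgfr3, though not in Spry2, and for Fgfr3 it lay among them. These differences are a description of unequal change within a gene and were not tested.

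The log2 ratio of 3' to 5' control signals, a measure of RNA integrity in which a higher value means fewer complete transcripts, also set control pools 1 and 2 apart. For Actb it was 0.42, 0.34 and 0.42 in Stat3Δ/Δ pools 1 to 3 and 0.81, 0.64 and 0.47 in control pools 1 to 3. For Gapdh it was -0.49, -0.30 and -0.45 in Stat3Δ/Δ pools 1 to 3 and 0.27, 0.031 and -0.24 in control pools 1 to 3. Control pools 1 and 2 had the highest ratios for both genes, and control pool 3 lay between them and the Stat3Δ/Δ pools. The part of RNA integrity or of the title number in the values of Etv5, Fgfr2 and Fgfr3 was not tested. In 4 probe sets, 1420998_at and 1450082_s_at of Etv5, 1420847_a_at of Fgfr2 and 1425796_a_at of Fgfr3, control pool 3 lay above control pools 1 and 2. Leaving control pool 3 out therefore raises their fold changes by construction, and the arrangement was noticed after the values were seen. Without that pool the log2 fold changes were 1.69, 1.15, 1.48 and 1.89. These 4 of the 26 then passed the unadjusted thresholds as higher, against 6.49% of all probe sets, which is given as a description. Of the 26, 0 were lower at these thresholds then, against 5.1% of all. None passed the FDR then, with a lowest adjusted p of 0.226 from limma.

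**Figure D3:**
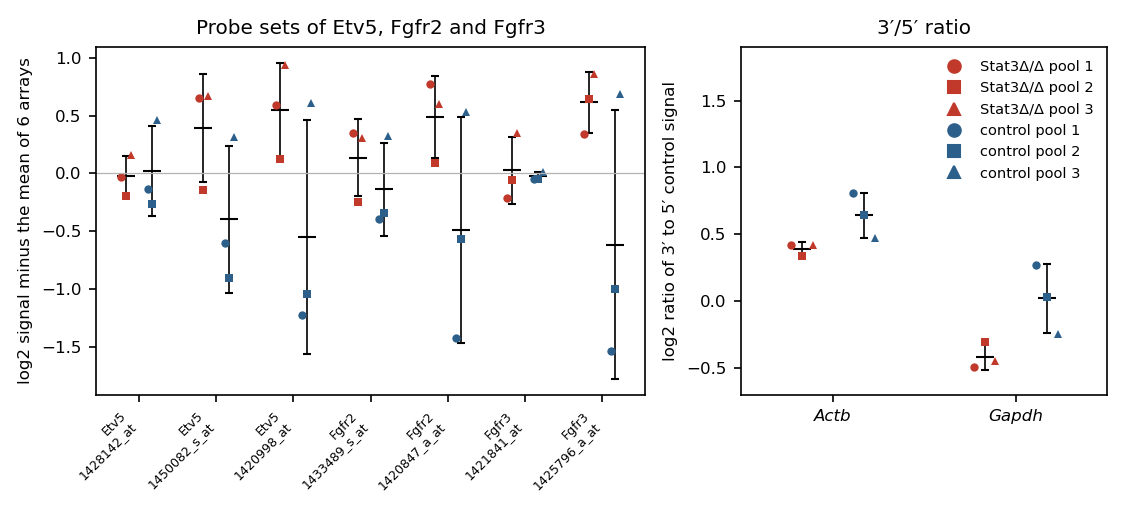
Left, log2 signal minus the mean of the 6 arrays (y axis) for 7 probe sets of Etv5, Fgfr2 and Fgfr3 (x axis); right, 3'/5' log2 ratio of the control probe sets (y axis) of Actb and Gapdh. Points are pools, Stat3Δ/Δ in red on the left and control in blue on the right, and bars the mean ± SD (n = 3); control pools 1 and 2 are lowest for 1420998_at, 1450082_s_at, 1420847_a_at and 1425796_a_at and highest for both ratios.

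Spry1 and Dusp6 ran together over the arrays. Among 11711 genes with a signal above the median, Dusp6 was the gene most like Spry1, with a Pearson correlation of 0.985 over the 6 log2 values, followed by Plcg1 (0.978), a phospholipase that binds activated receptors, and by Cwc22 (0.960), a splicing factor. The genes most like Dusp6 were Cwc22 (0.988), Spry1 (0.985) and Eif5a2 (0.968), a translation factor. Without control pool 3, the correlation of Spry1 and Dusp6 was 0.913 over 5 arrays. Between Spry2 and Dusp6 it was 0.875 over 6 arrays and 0.803 without that pool. Between Etv5 and Dusp6 it was 0.763 over 6 arrays and -0.0050 without control pool 3, so it rested on that pool. Etv5 and Spry1 gave 0.857 over 6 arrays and 0.401 without it. Etv5 and Fgfr2 gave 0.776 over 6 arrays and 0.830 without it, so that this likeness did not rest on that pool. Other pairs of members ran against each other over the 6 arrays. Fgfr1 and Etv5 gave -0.929, Fgfr2 and Spry4 -0.863 and Fgfr1 and Spry1 -0.834. These values were not computed without control pool 3. That pool was the lowest array for Fgfr1 (8.83) and the highest for Spry1 (14.335) and Etv5 (15.694). How far the values with Fgfr1 rest on that pool is thus not known. Spry4 gave -0.249 with Spry1 and -0.172 with Dusp6, so the members did not all run together. The genes most like Etv5 by its brightest probe set were Nek6 (0.996), Rasgef1a (0.971) and Reck (0.967). These likenesses are over 6 arrays that fall into 2 groups and 3 title numbers, which the genes compared have in common, and are given with no test.

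The FGF ligands were mostly dim in these isolates. Of 22 ligands listed and measured, 0 were higher and 1 was lower at the unadjusted thresholds, against 2.15% and 5.54% of all genes by their brightest probe sets, and their median log2 fold change was -0.056. The 1 was Fgf14, an intracellular member of the family, with -0.96 (SE 0.38, limma adjusted p = 0.56) and -1.35 within the shared title number. Fgf1, a ligand of all the receptors, had signals of 6915, 5639 and 6001 in Stat3Δ/Δ pools 1 to 3 and 6931, 5576 and 6235 in control pools 1 to 3. Its log2 difference was -0.0034 (SE 0.24, limma adjusted p = 0.998). Fgf10, the mesenchymal ligand of FGFR2, had 22.6, 73.8 and 28.8 in Stat3Δ/Δ pools 1 to 3 and 270.4, 180.1 and 24.1 in control pools 1 to 3. Control pool 3 lay among the Stat3Δ/Δ pools, and the log2 fold change was -0.995 (SE 0.51, limma adjusted p = 0.648). Within the shared title number the direction turned, to 0.27. Fgf7, the other mesenchymal ligand, gave -0.29, Fgf9 0.42, Fgf18 0.51 and Fgf2, whose Stat3Δ/Δ arrays each lay above the controls at low signals, gave 0.57; none had a p of at most 0.05. Within the shared title number Fgf7 gave -0.30, Fgf9 1.35, Fgf18 0.18 and Fgf2 0.28. The 9 fibroblast markers summed to signals of 5581 to 11139 on the Stat3Δ/Δ arrays and 16228 to 32148 on the control arrays. Of these markers 4 were lower at the unadjusted thresholds, against 5.54% of all genes, and none was higher, against 2.15%. Over all arrays 7 lay below 0 and 2 above, Pdgfra at 0.69 and Tcf21 at 0.38. Their median log2 fold change was -0.80 over all arrays and 0.038 within the shared title number. Mfap4 lay below the 20th percentile on every array. The 4 mesothelial markers summed to 1985 to 3316 on the Stat3Δ/Δ arrays and 6203 to 9967 on the control arrays, with 3 lower, against the same 5.54%. The part of either cell type in the values of Fgfr1 and of the ligands was not tested.

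Of 17 co-receptors and adaptors measured, 1 was lower at these thresholds and 0 higher, against 5.54% and 2.15% of all genes, with a median log2 fold change of -0.019. The 1 was Klb, a co-receptor of endocrine FGFs. Its signals were 33.4, 33.9 and 36.1 in Stat3Δ/Δ pools 1 to 3 and 125.4, 143.7 and 99.3 in control pools 1 to 3. The groups did not overlap at these low signals, and the log2 fold change was -0.97 (SE 0.25, limma adjusted p = 0.469) and -0.69 within the shared title number. Grb2, the adaptor that links receptors to RAS, had 5204, 5555 and 4812 in Stat3Δ/Δ pools 1 to 3 and 3229, 4274 and 3806 in control pools 1 to 3, each Stat3Δ/Δ pool above each control pool. Its log2 difference was 0.46 (SE 0.24, limma adjusted p = 0.657) and 0.49 within the shared title number. Fgfrl1, a receptor without kinase, gave -0.014, and -0.22 within that number. Of 10 genes of the RAS and ERK cascade measured, 1 was lower and 0 higher, beside the same shares of all genes, with a median of 0.096. It was Map2k2, which phosphorylates ERK, with -0.62 (SE 0.26, limma adjusted p = 0.581) and -0.55 within the shared title number, with the Stat3Δ/Δ arrays all below the control arrays.

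Of 26 other feedback inhibitors and targets of ERK measured, 3 were lower and 1 was higher at the unadjusted thresholds, against 5.54% and 2.15% of all genes. Their median log2 fold change was -0.17 with 18 values below 0, and the median of all genes was -0.085. On the normalized scale the groups did not overlap for 2 that were higher and 5 that were lower, against 4.23% and 10.2% of all genes. Egr1, an immediate early transcription factor, gave signals of 27206, 25070 and 27367 in Stat3Δ/Δ pools 1 to 3 and 47013, 57600 and 57671 in control pools 1 to 3. Ier2, another immediate early gene, gave 14117, 14778 and 14267 in Stat3Δ/Δ pools 1 to 3 and 26870, 28432 and 34876 in control pools 1 to 3. In both genes the 3 Stat3Δ/Δ pools lay close together and below all 3 control pools. The log2 differences were -0.91 for Egr1 (SE 0.25, limma adjusted p = 0.481) and -0.97 for Ier2 (SE 0.25, limma adjusted p = 0.469), and within the shared title number they were -1.08 and -1.23. Egr3 gave -0.99 (SE 0.32, limma adjusted p = 0.516), and -1.44 within that number. Myc, a growth factor target, was the 1 with the higher value, 11456, 10341 and 12445 in Stat3Δ/Δ pools 1 to 3 and 6024, 7021 and 8467 in control pools 1 to 3. Its log2 difference was 0.69 (SE 0.26, limma adjusted p = 0.545) and 0.37 within the shared number. None of these passed the FDR, and Egr1 was named after its value was seen.

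Among the inhibitors of this list, Spred1 and Spred2, relatives of the Sprouty proteins, gave -0.081 and 0.012 over all arrays and 0.061 and -0.40 within the shared title number, and Il17rd, a membrane inhibitor of FGF receptors, gave -0.13. The ERK phosphatases Dusp4 and Dusp5 gave -0.27 and -0.31. Fos gave -0.50, Ccnd1 -0.55, Dusp1 -0.44 and Fosl1 0.25, all named after their values were seen and none at a p of at most 0.05. On the normalized scale Ccnd1, the cyclin of entry into the cell cycle, lay lower on each Stat3Δ/Δ array than on every control array, and Fosl1 higher. By deposited signal the groups overlapped for Fosl1, with 15227 in control pool 1 against 14109 in Stat3Δ/Δ pool 1. The 5 macrophage markers, the other cell type that the study's methods name in the isolates, summed to signals of 29600 to 48182 on the Stat3Δ/Δ arrays and 18983 to 26321 on the control arrays. Of these, 2 were higher at the unadjusted thresholds, against 2.15% of all genes, and none was lower, against 5.54%. None lay below the 20th percentile on any array. The 5 ciliated cell markers summed to 5570 to 7488 on the Stat3Δ/Δ arrays and 10377 to 17214 on the control arrays, with 3 lower, against the same 5.54%. The part of these cells in the values of Egr1, Ier2, Egr3 and Myc was not tested. The study's methods state that the purity of the isolates, assessed by Papanicolaou stain, did not differ between the groups.

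**Figure D4:**
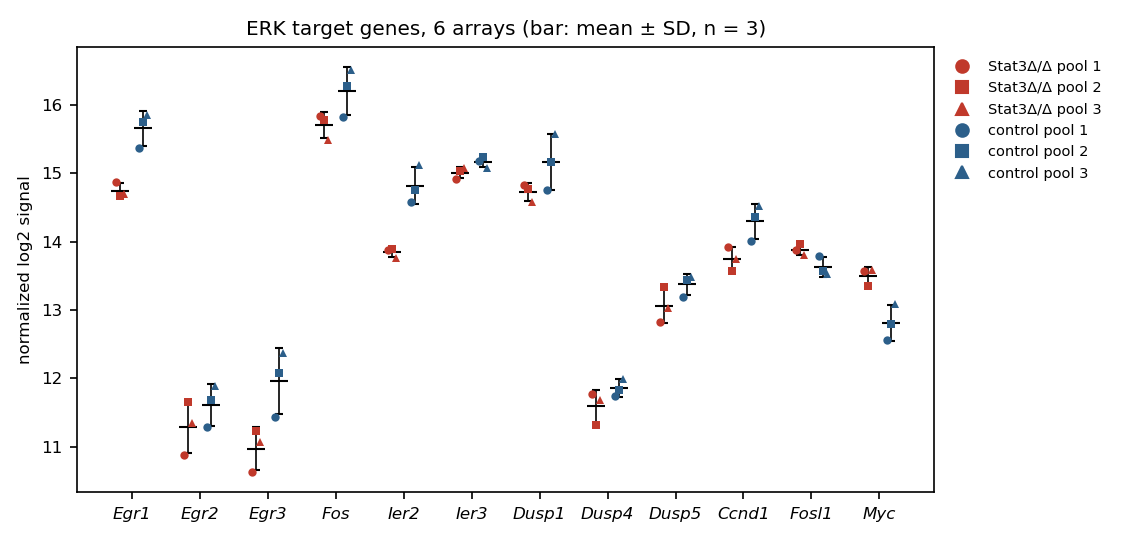
Normalized log2 signal (y axis) of 12 immediate early genes, phosphatases and growth targets of ERK (x axis) in 3 Stat3Δ/Δ pools (red, left) and 3 control pools (blue, right); points are pools and bars the mean ± SD. On this scale Egr1, Ier2, Egr3, Ier3 and Ccnd1 lie lower on each Stat3Δ/Δ array than on every control array, and Myc and Fosl1 higher. These are all the genes without overlap among the 26 of the list. Of all genes, 10.2% were lower and 4.23% higher without overlap. Ier3 and Fosl1 are narrowly apart (Ier3 15.069 in Stat3Δ/Δ pool 3, 15.081 in control pool 3), and their deposited signals overlap. None passed the FDR.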

How the data were processed

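Signal intensities per probe set were deposited as the authors made them with Affymetrix Microarray Suite 5.0 (MAS5 in the submitters' processing notes), with each array scaled to 1500 as its 2% trimmed mean, which was checked; the RMA values of the study's tests were not used here. Of 45101 probe sets, 64 controls were left out. The pseudocount of 69.9 was added, log2 was taken and quantile normalization was applied. The group term was fitted with limma 3.58.1 (R 4.3.3), with Benjamini-Hochberg adjusted p over 45037 probe sets. Genes were named from the platform annotation, with symbols updated through RefSeq; 34945 probe sets name 1 gene, 932 several and 9160 none. The members, lists and alternatives were chosen with earlier results of these data known. All members were named, as were Stat3, a set of ligands, adaptors and inhibitors, and up to 2 genes in each direction of each list; other genes were chosen after their values were seen. Genes of the lists that no probe set names alone were not analysed here. Replicate pools are separate pools of mice, and their number limits the precision. The fit was tested on simulated data. Sequences and figures were made with Python 3.11.15 and matplotlib 3.10.9. Alternatives changed the pseudocount, normalization, low-signal filter, test, variance model, array weights, blocks, probe set per gene, fold threshold and arrays used.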

Additional observations from a re-analysis of the deposited data

How the results depend on the processing

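No member gene was called by its brightest probe set under any of the alternatives: of 189 values, 170 kept their direction, 19 changed sign and the lowest adjusted p was 0.431. No member probe set was called under any alternative, also without the fold threshold. The member probe sets higher at p and fold without the FDR numbered 1, and 0 with no pseudocount, with the pseudocount at the median signal, with the methods' t-test and with the title number as a random block. They numbered 2 with the filter on low signal and with array weights, 3 with the replicate block, 4 with a trended robust variance, and 0 to 4 with 1 pool left out. With the title number as a fixed block or the arrays that share it, the group term rests on the same 3 arrays, 1 of them a control. These 2 settings thus give the same fold changes, 1.16 for Fgfr1 probe set 1424050_s_at and -0.20 for Fgfr3 probe set 1425796_a_at. The member probe sets lower at p and fold without the FDR numbered 1, and 0 to 1 with 1 pool left out. They numbered 0 with the pseudocount at the median signal, without normalization between arrays and with the filter. They also numbered 0 with the methods' t-test, the trended variance or the replicate block. For the title number as a fixed block and the arrays that share it, with 1 control array, no such count is given. There Spry4 probe set 1422020_at gave -0.78. Over all probe sets 1 was called, 11 with the pseudocount at the median signal, 2 with arrays centred on their medians, 14 with the filter, 13 with the trended variance and 2 with array weights. That count was 0 with no pseudocount, the methods' t-test, the replicate block, the title number as a fixed block or the arrays that share it, and 0 to 1 with 1 pool left out. The median of the member genes was -0.13; it was -0.43 with the title number as a fixed block and within it, -0.33 with arrays centred on their medians, and turned to 0.014 without control pool 3 and 0.0027 with the mean of the probe sets of each gene. With that block, and within the arrays that share the number, Fgfr2 turned to -0.28, Fgfr3 to -0.15 and Etv4 to -0.082. Fgfr1 was -0.056 when arrays were centred, -0.10 with array weights and -0.042 with the mean of its probe sets; leaving out 1 pool gave -0.50 to 0.37. Fgfr3 was -0.079 when arrays were centred, and leaving out 1 pool gave -0.11 to 0.17. With the mean of their probe sets, Spry2 turned to 0.0077 and Etv5 to 0.62. With 1 pool left out, Spry1 ran from -0.40 to 0.042, Etv4 from -0.18 to 0.71 and Etv5 from -0.19 to 0.18. The causes were not tested. Pools of the same number did not deviate together (correlations of -0.084, -0.0090 and -0.24 across probe sets), so the replicate block rests on a number alone.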
